A study of Mus musculus with 2 samples.

Results

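MHC class II high macrophages of the mouse abdominal aortic aneurysm were described here from single-cell RNA-seq. They were 649 of the 16521 cells kept in 2 libraries, 174 from the inhibitor sample and 475 from the DMSO sample. Barcodes needed 200 or more genes and no more than 20% mitochondrial transcripts. Transcripts were counted by unique molecular identifiers (UMIs), so that copies made by PCR count once. The macrophages were chosen by measured gene levels: a cell entered the group when C1qa, C1qb and C1qc together held at least 0.2% of its UMIs and H2-Aa, H2-Ab1, H2-Eb1 and Cd74 together at least 2%. It could hold a UMI of at most 1 of the 4 resident macrophage genes Lyve1, Cd163, Folr2 and Cbr2, and at most 1 UMI of Gpnmb, a gene of lipid-laden macrophages. The levels of those genes are therefore given below as a description only.

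Aortic tissue was taken at 12 weeks of age from Apoe-/- mice, which lack apolipoprotein E, after angiotensin II, a pressor peptide, had induced an abdominal aortic aneurysm. The inhibitor library is the 1 titled IN_A and the DMSO library, with the solvent alone, the 1 titled D_A; the initials were read with the help of the series design, and no label names the inhibitor, its dose or its timing. Animals of both groups carried the Apoe deletion, the angiotensin II treatment and the aneurysm, so no group shows an untreated wall, and the number of animals behind each library is not given. With 1 library per group there is no replicate and no test: intervals are exact 95% intervals that cover counting error only, and no interval covers the difference between animals or between library preparations.

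Macrophages clear debris, lipid and dying cells from the artery wall. C1q, the first component of the classical complement pathway, is made largely by tissue macrophages and is a common mark of them in single-cell data. MHC class II molecules present peptides from engulfed material to CD4 T cells: the alpha and beta chains are paired in the endoplasmic reticulum with the invariant chain Cd74, the chain is cut away by lysosomal proteases such as cathepsin S, and H2-DM exchanges its last fragment for a peptide. In the mouse aorta, macrophages with high MHC class II and Ccr2 are commonly set apart from resident macrophages with Lyve1 and Folr2 and from foamy macrophages with Trem2 and Gpnmb.

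The inhibitor library held 8149 barcodes and 79648307 UMIs, and the DMSO library 9125 barcodes and 101139161 UMIs. The kept cells were 7857 and 8664, and 16 barcodes occurred in both libraries, none of them in this group. Median depth per macrophage was 6832.5 UMIs with 2413.5 genes for the inhibitor and 6082 UMIs with 2405 genes for DMSO, and the summed depth was 1223554 and 3310779 UMIs. Smooth muscle cells, by a marker gate, made up 36.1% of the inhibitor cells and 5.56% of the DMSO cells. Their 5 markers summed to 1446 CPM (UMIs per 1000000 UMIs of the summed cells) for inhibitor macrophages and 256 CPM for DMSO macrophages, and whether these came from free RNA or from doublets was not tested. To limit the part of other cells' RNA, a gene was compared only if its mean over the 2 libraries was at least 50 CPM and at least 20% of its level in the comparison cell type where it was highest.

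The label was checked on markers that the rule did not use. Csf1r, the receptor for the growth factor that macrophages depend on, stood at 688 CPM in inhibitor macrophages and 629.8 CPM in DMSO macrophages, and 87.4% and 87.6% of the cells held a UMI of it. The Fc receptor gene Fcgr1 stood at 365 and 309.9 CPM, and Adgre1, the gene of F4/80, at 351 and 285 CPM. The 10 dendritic cell markers summed to 39.2 CPM in inhibitor macrophages and 61.3 CPM in DMSO macrophages. Of the defining dendritic markers, Xcr1 had 0 UMIs in inhibitor and 3 UMIs in DMSO macrophages, Flt3 stood at 8.17 and 9.06 CPM, and Zbtb46 at 3.27 and 1.81 CPM. The 7 T cell markers had 0 UMIs in the inhibitor macrophages, which allows up to 3.02 CPM by the upper end of the interval, and 43 UMIs in the DMSO macrophages. The cells thus carried the markers of the label in both libraries.

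MHC class II high macrophages were 2.21% of the kept cells of the inhibitor library (174 cells, Clopper-Pearson interval 1.90 to 2.56%) and 5.48% of those of the DMSO library (475 cells, 5.01 to 5.98%). The ratio of the shares was 0.404, with an interval of 0.338 to 0.482. Against all cells that passed the C1q limit the difference was smaller: the group made up 25.1% of 694 such inhibitor cells (21.9 to 28.5%) and 28.9% of 1646 such DMSO cells (26.7 to 31.1%), a ratio of 0.869 whose interval of 0.726 to 1.04 includes 1. The lower share among all cells thus went with a lower share of C1q cells as a whole. Shares of a library sum to a fixed total, so the larger smooth muscle share lowers every other; the part of this in the ratio was not tested.

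The other cells that carry C1q or MHC class II did not share 1 ratio. C1q cells with 2 or more of the 4 resident genes made up 3.82% of inhibitor cells and 4.49% of DMSO cells, and C1q cells with 2 or more Gpnmb UMIs were 0.713% and 3.49%. C1q cells under the MHC class II limit were 2.09% and 5.54%, and cells over that limit with hardly any C1q were 2.93% and 6.20%. The difference in share of the MHC class II high macrophages was close in size to that of the cells low in C1q or in MHC class II, larger than that of the cells with resident genes and smaller than that of the Gpnmb cells.

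**Figure D1:**
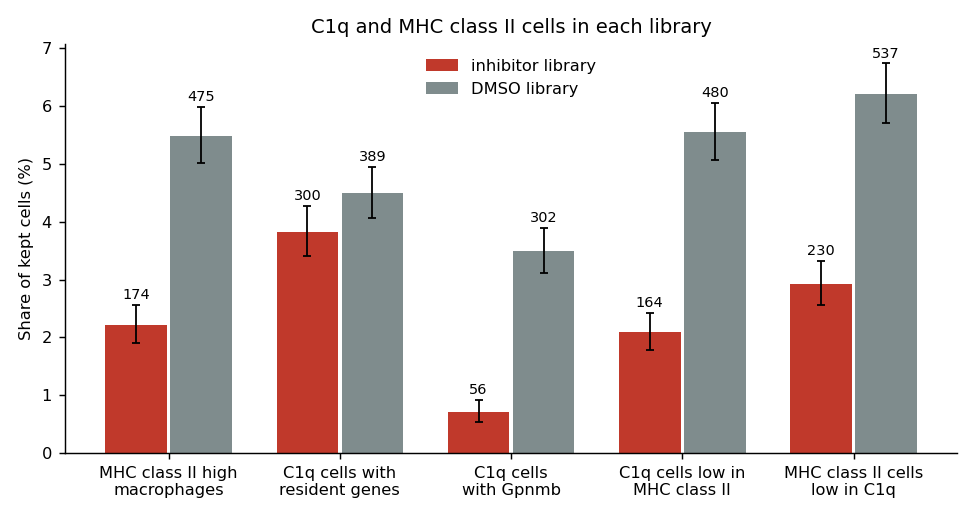
Share of kept cells (vertical axis, percent) in 5 groups of cells that pass the C1q limit, the MHC class II limit or both, with the inhibitor library in red and the DMSO library in grey. Bars are shares, lines are exact 95% intervals and numbers on the bars are cells. MHC class II high macrophages were 2.21% and 5.48%, and the group with resident genes came closest to equal shares.

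Within the group, the MHC class II and C1q genes of the rule stood at nearly the same level in the libraries, and Gpnmb, Cbr2 and Cd163 did not. The 4 MHC class II genes held a median of 4.41% of a cell's UMIs in inhibitor macrophages, with a highest value of 11.8%, and 3.92% in DMSO macrophages, with a highest value of 8.73%. The C1q genes held a median of 1.12% and 1.05%. At the limit itself, 15 inhibitor and 20 DMSO macrophages lay less than 0.25 percentage points above 2% MHC class II, and 16 and 28 otherwise like cells lay less than 0.25 points below it. A UMI of 1 of the resident genes was found in 57 of 174 inhibitor and 138 of 475 DMSO macrophages, while 47 and 113 cells with 2 of these genes were just outside. Gpnmb stood at 4.90 and 19.03 CPM, with 1 UMI in 6 of 174 and 63 of 475 macrophages, and 3 and 7 cells with 2 UMIs were just outside. The carbonyl reductase gene Cbr2 stood at 51.5 and 32.6 CPM, and without the highest cell of each library its ratio was 1.33. Cd163 had 19 UMIs in inhibitor and 28 in DMSO macrophages, and its CPM ratio without these highest cells was 1.53. At the C1q limit, 1 inhibitor and 11 DMSO cells lay less than 0.05 percentage points inside and 1 and 18 outside. Cells thus lay on both sides of the MHC class II and resident gene limits in number, and few lay at the C1q limit or just past the Gpnmb limit.

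H2-Aa, the alpha chain of the I-A molecule, stood at 8762 CPM in inhibitor and 8508 CPM in DMSO macrophages. H2-Eb1, the beta chain of I-E, stood at 9089 and 8031 CPM, and Cd74 at 20603 and 19415 CPM. Of the genes of the same pathway that the rule did not use, 7 of 15 were abundant enough to compare, and none of them was 1.5-fold higher or lower in the inhibitor library. Over all genes compared in these macrophages 6.48% passed 1.5-fold either way, so a count of 0 among 7 is near that background. Ciita, the master coactivator of MHC class II transcription, stood at 188 and 185 CPM (ratio 1.02, interval 0.869 to 1.18). The peptide exchange chains H2-DMa, at 587 and 588 CPM, and H2-DMb1, at 574 and 529 CPM, were as close. The protease Ctss, at 2431 and 2650.4 CPM, the legumain gene Lgmn, at 866 and 1063 CPM, and the thiol reductase Ifi30, at 705 and 958 CPM, were lower by under 1.5-fold, and the ubiquitin ligase gene March1 stood at 118 and 111 CPM. The median log2 ratio of the 7 genes was -0.0038, beside -0.04 over all genes compared.

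Because these genes are controlled together by Ciita, 3 of their promoters are printed to show the letters they have in common. They come from RefSeq on GRCm38.p6, which is the build of the files, run from 250 bases before to 50 bases after the annotated start, and are written 5′ to 3′ on the gene's strand. H2-Aa lies on the minus strand at chr17:34287774-34288073, H2-Eb1 on the plus strand at chr17:34305617-34305916 and H2-DMb1 on the plus strand at chr17:34152941-34153240. Capitals mark the core of the Y box, TGATTGG, bound by the factor NF-Y, and AACTGATGATGCT, the longest run that the H2-Eb1 and H2-DMb1 windows share, which holds part of the X box bound by the RFX complex.
H2-Aa: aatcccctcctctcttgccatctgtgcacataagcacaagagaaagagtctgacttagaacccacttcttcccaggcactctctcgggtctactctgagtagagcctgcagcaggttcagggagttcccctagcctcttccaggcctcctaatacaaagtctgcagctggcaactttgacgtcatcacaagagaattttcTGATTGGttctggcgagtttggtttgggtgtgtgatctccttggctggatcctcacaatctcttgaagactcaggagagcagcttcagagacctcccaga
H2-Eb1: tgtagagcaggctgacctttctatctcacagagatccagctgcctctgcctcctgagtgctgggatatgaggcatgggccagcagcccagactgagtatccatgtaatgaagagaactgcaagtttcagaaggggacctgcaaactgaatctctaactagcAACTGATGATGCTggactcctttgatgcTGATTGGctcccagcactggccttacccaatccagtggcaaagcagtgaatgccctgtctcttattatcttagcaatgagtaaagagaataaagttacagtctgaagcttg
H2-DMb1: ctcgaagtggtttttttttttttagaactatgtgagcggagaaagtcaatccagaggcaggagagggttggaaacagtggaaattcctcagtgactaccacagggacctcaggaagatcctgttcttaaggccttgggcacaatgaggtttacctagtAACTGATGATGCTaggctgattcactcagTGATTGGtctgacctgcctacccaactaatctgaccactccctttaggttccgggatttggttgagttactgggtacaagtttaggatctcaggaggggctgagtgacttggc
Of 11 MHC class II pathway genes looked up, 8 had a window in the table. The Y box core, searched on both strands, lay in the windows of 7 of them and in 7.82% of all 32851 windows. It began 50 bases before the start of H2-Aa, 61 bases before that of H2-Eb1 and 63 bases before that of H2-DMb1. The shared run of 13 bases, also searched on both strands, lay in 3 of all windows, of which H2-Eb1 and H2-DMb1 hold it by construction. It began 89 bases before the start of H2-Eb1 and 92 bases before that of H2-DMb1, upstream of the Y box core in each. Matches are a description of the letters, and the data hold no measure of binding.

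The gene lists were also counted against related cells, among genes of at least 50 CPM over both groups and without the free RNA limit; a gene counted where it passed 1.5-fold in both libraries. Against the C1q cells with resident genes, 3.37% of 3260 genes were higher in the MHC class II high macrophages and 6.78% lower. Of 14 genes of monocyte-derived cells, 6 were higher (Ccr2, Cd14, Cx3cr1, Ms4a4c, Napsa and Plac8) and none lower. Of 14 cytokine and chemokine genes, 5 were higher (Ccl3, Ccl4, Cxcl16, Il1b and Tnf) and 1, Ccl8, was lower. Il1b, the interleukin-1 beta gene, which failed the free RNA limit, stood at 163 CPM in inhibitor and 217 CPM in DMSO macrophages, against 7.54 and 35.8 CPM in cells with resident genes. Cx3cr1, the fractalkine receptor, stood at 436 and 396 CPM, against 143 and 115 CPM. The chemokine gene Cxcl10 and the lymphocyte and myeloid surface gene Cd72 were higher by 3.02-fold to 3.69-fold in each library. In the inhibitor macrophages 36.8% of the Cxcl10 UMIs lay in 1 cell. Without that cell Cxcl10 stood at 78.9 CPM, against 33.6 CPM in the inhibitor cells with resident genes. Of 14 resident macrophage genes outside the rule, 12 were lower and none was higher; Mgl2 was within 1.5-fold, at 542 and 179.9 CPM in the cells with resident genes. F13a1, the coagulation factor XIII chain, stood at 285 and 199.7 CPM, against 1375 and 709.6 CPM, and the chemokine gene Ccl8 at 173 and 381 CPM, against 989 and 2404 CPM. The scavenger receptor gene Stab1 and the platelet factor gene Pf4 were lower too, and so were the stromal genes Acta2, Sparc, Mgp and Col3a1, which macrophages do not make in quantity and whose part in the profile of the resident cells was not tested.

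Against the C1q cells with Gpnmb, 9.26% of 3111 genes were higher in the MHC class II high macrophages and 10.4% lower. Ccr2, the receptor that brings monocytes into tissue, stood at 866 CPM in inhibitor and 949 CPM in DMSO macrophages, against 55.1 and 160.3 CPM in the Gpnmb cells. The lectin gene Clec4b1 stood at 227 and 194 CPM, against 7.72 and 32.3 CPM, and the lectin gene Mgl2 at 511 and 212 CPM, against 3.31 and 6.34 CPM. Of 24 lipid handling genes 22 were lower and none was higher, and of 17 lysosomal genes 12 were lower and 1, Ctsc, was higher. Fabp5, a fatty acid binding protein, stood at 126 and 330.4 CPM, against 8380.3 and 7458 CPM, and Spp1, osteopontin, at 504 and 355 CPM, against 4632 and 5855 CPM. The protease genes Ctsd and Ctsb and the galectin Lgals3 were at 0.131 to 0.252 of their level in the Gpnmb cells.

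Against the cells with high MHC class II and hardly any C1q, 8.9% of 3069 genes were higher in the macrophages and 6.45% lower. Of 13 complement and Fc receptor genes 7 were higher and none was lower. Of 10 MHC class II pathway genes outside the rule 3 were higher, the proteases Ctsl, Ctss and Lgmn, and 4 were lower, Ciita, H2-DMb2, H2-Oa and Ifi30; both groups passed the same limit on the MHC class II genes of the rule. Ms4a7, a membrane gene of tissue macrophages, stood at 580.3 CPM in inhibitor and 599 CPM in DMSO macrophages, against 21.2 and 49.9 CPM in the cells low in C1q. Trem2, the lipid receptor, stood at 418 and 321 CPM, against 17.3 and 40.3 CPM, and the receptors for complement fragments C3ar1 and C5ar1 were 6.39-fold to 22.9-fold higher. Plac8, a monocyte gene, and the leukocyte genes Lsp1 and S100a4 were lower in the macrophages. H2-DMa stood at 587 and 588 CPM, against 812 and 793 CPM. These comparisons describe groups cut from the same libraries by their own genes, so they carry no test.

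**Figure D2:**
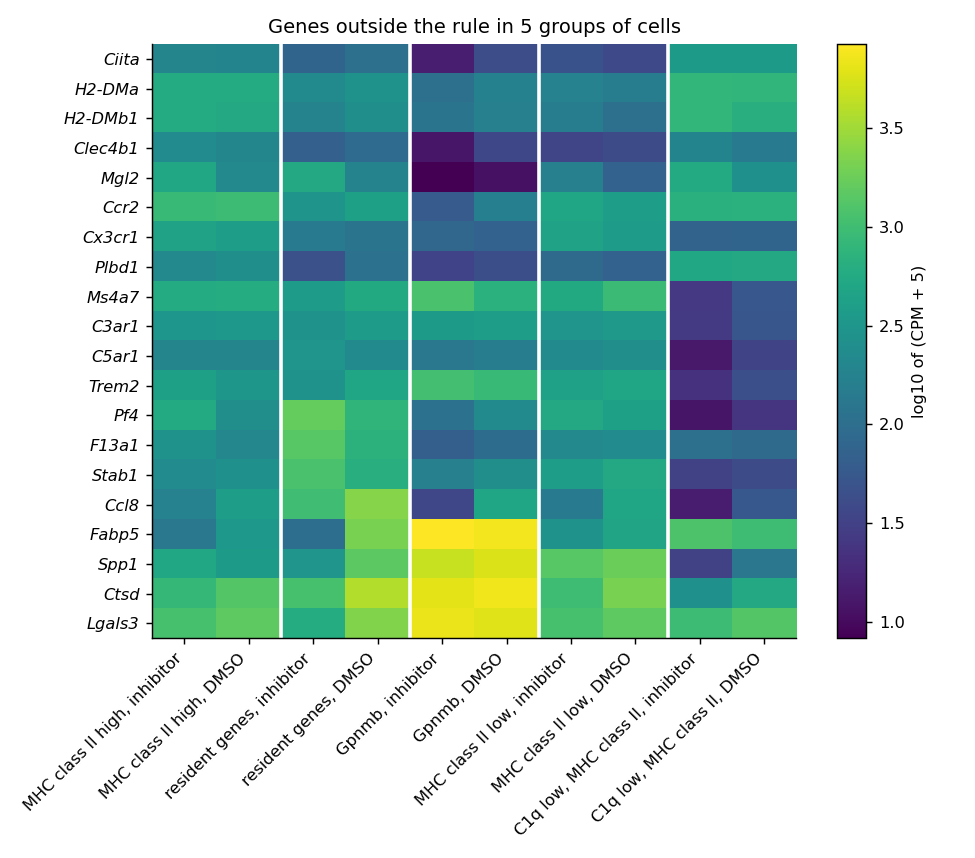
Level of 20 genes outside the rule (rows) in 5 groups of cells, each with the inhibitor library left of the DMSO library (columns); colour is log10 of CPM with 5 CPM added. The MHC class II high macrophages hold Ciita, H2-DMa and Ccr2, as the cells low in C1q do, but Ciita and H2-DMa are lower than in those cells. They also hold Ms4a7, C3ar1 and Trem2, as the other C1q cells do, with Trem2 lower than in the Gpnmb cells. Fabp5, Spp1, Ctsd and Lgals3 are highest in the Gpnmb cells.

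The group was also split by the same MHC class II share that the rule used. The parts therefore differ in those genes by construction, and their values are a description only. Macrophages with at least 4% MHC class II UMIs numbered 103 of 174 inhibitor cells (59.2%, interval 51.5 to 66.6%) and 231 of 475 DMSO cells (48.6%, 44.1 to 53.2%); the rest lay between 2 and 4%. The upper part held more Ciita, with 223 CPM against 123 CPM in the lower part of the inhibitor library, and 218 against 141 CPM in the DMSO library. Clec4b1 stood at 298 against 94.4 CPM in the inhibitor library and at 255 against 111 CPM in the DMSO library. The ion channel gene Tmem176b, Plbd1 and the surface glycoprotein gene Cd52 were also higher in the upper part of each library.

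Between the parts, 0.451% of 3106 genes were 1.5-fold higher in the upper part of both libraries and 1.61% lower. Of 13 resident macrophage genes outside the rule 3 were lower (Ccl8, Stab1 and Wwp1) and 1, Mgl2, was higher, at 590.1 and 361 CPM in the inhibitor library and 269 and 135 CPM in the DMSO library. Of 23 lipid handling genes 4 were lower (Fabp4, Fabp5, Msr1 and Spp1) and none was higher. Stab1 stood at 174 CPM in the upper and 335 CPM in the lower part of the inhibitor library, and at 185 and 364 CPM in the DMSO library. Fabp5 stood at 75 and 222 CPM in the inhibitor library and at 241 and 451 CPM in the DMSO library. Pf4 and the neuropilin gene Nrp1 also had fewer CPM in the upper part of each library. The ribosomal RNA-like genes Gm42418 and CT010467.1 were lower in the upper part of each library as well; their part in the other differences was not tested.

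Between the libraries, 2823 genes could be compared in the MHC class II high macrophages. At least 1.5-fold higher in the inhibitor library were 32 of them (1.13%), and at least 1.5-fold lower were 151 (5.35%); together this is 6.48% of the genes compared, which is the background for every count below. All other genes lay between these limits. Scaled by median-ratio size factors in place of the total, the counts were 46 higher and 121 lower, and with the mean of per-cell CPM they were 96 and 213. The median log2 ratio of all genes compared was -0.04, and log2 ratios are given after adding 5 CPM to both levels.

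**Figure D3:**
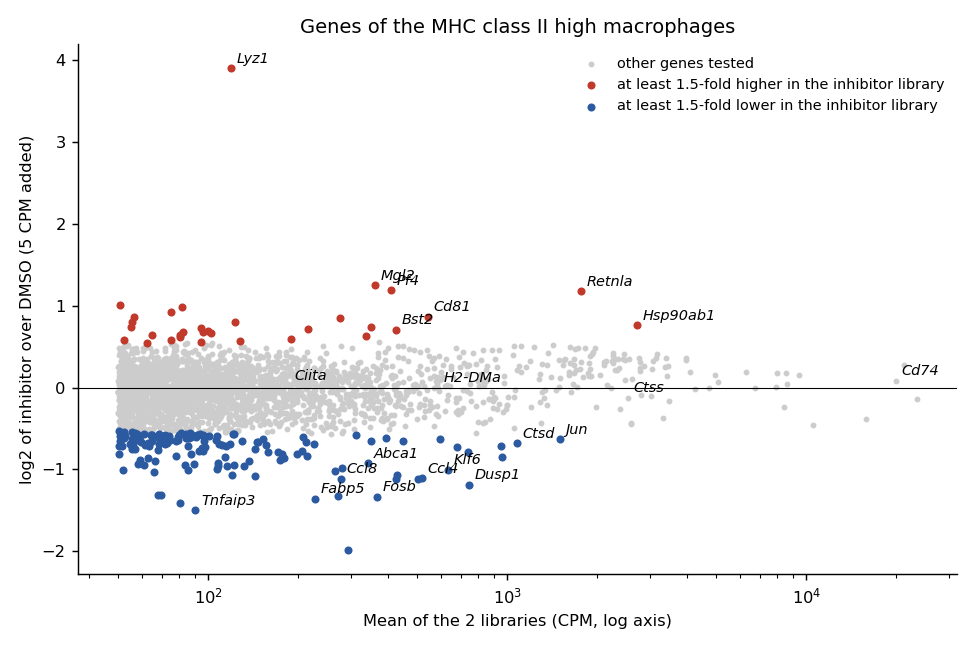
Each point is 1 of the 2823 genes compared in the MHC class II high macrophages: mean level of the 2 libraries (horizontal, CPM, log axis) against the log2 ratio of inhibitor to DMSO (vertical, 5 CPM added). The 32 genes that were at least 1.5-fold higher in the inhibitor library are red and the 151 that were at least 1.5-fold lower are blue; Ciita, H2-DMa, Ctss and Cd74 lie near 0.

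The highest ratios after Lyz1 belonged to Mgl2 and Pf4. They are in the list of resident macrophage genes outside the rule, of which 2 of 11 were higher and 2 lower in the inhibitor library, with a median log2 ratio of -0.07. Mgl2, a galactose-type lectin, stood at 511 CPM in inhibitor and 212 CPM in DMSO macrophages (ratio 2.41, interval 2.16 to 2.69), and after thinning every cell to 2000 UMIs, 37.2% of 148 inhibitor and 19.6% of 414 DMSO cells held a UMI of it, against 0.538% and 0.209% of smooth muscle cells. Pf4, a CXC chemokine of platelets and resident macrophages, stood at 570.5 and 247 CPM, and was held by 41.9% and 25.1% of thinned cells. Fcrls, an Fc receptor-like gene of resident macrophages and microglia, stood at 357 and 195 CPM, and Cd81, a tetraspanin, at 700.4 and 382 CPM. Fkbp5, a glucocorticoid-induced cochaperone, stood at 158 and 88.8 CPM. Fcrls and Fkbp5 were within 1.5-fold under 1 alternative each. For Mgl2, Pf4 and Fcrls the inhibitor library was also higher among the cells with resident genes, where Mgl2 stood at 542 and 179.9 CPM and Pf4 at 1627 and 765 CPM. At low levels the order was the other way for Mgl2 in Gpnmb cells, at 3.31 and 6.34 CPM. It was so too for Pf4 in the cells low in C1q, at 7.22 and 18.4 CPM. The median log2 ratio of the list was 0.68 in cells with resident genes and -0.61 in Gpnmb cells. It was -0.14 in C1q cells low in MHC class II and -0.37 in MHC class II cells low in C1q.

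Lyz1, Retnla and Ear2 were held by few cells. Lyz1, a lysozyme on chromosome 10 (117287797 to 117292868, minus strand, GRCm38), stood at 228 CPM in inhibitor and 10.6 CPM in DMSO macrophages, a ratio of 21.6. It was found in 21 of 174 and 17 of 475 cells, and 98 of its 279 UMIs in the inhibitor library came from 1 cell; without the highest cell of each library the ratio was 18.3. Lyz1 is a close copy of Lyz2, at 8469 and 7469 CPM, and how reads were split between them is not known. Retnla, a secreted resistin-like protein of alternatively activated macrophages, stood at 2455 and 1082 CPM, but 12 inhibitor and 9 DMSO cells with 10 or more UMIs held 99.8% and 98.7% of its UMIs.

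Retnla did not keep its direction across the group. Among cells with at least 4% MHC class II it stood at 3331 CPM in inhibitor and 194 CPM in DMSO macrophages, and among cells with 2 to 4% at 802 and 2277 CPM. The highest DMSO cell alone held 50.1% of the DMSO UMIs and the highest inhibitor cell 27.3%. Ear2, a ribonuclease of eosinophils and some macrophages, behaved alike, with 110.3 and 53.5 CPM in all, 155 and 34.2 CPM in the upper part and 26.0 and 79.3 CPM in the lower part. Ear2 was found in 13 inhibitor and 24 DMSO cells, 8 and 11 of which also held Retnla.

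The other genes at the top were Dpep2, a dipeptidase gene at 69.5 CPM in inhibitor and 32.0 CPM in DMSO macrophages, and the processed pseudogenes Gm9843, Gm11478 and Gm9794. Whether reads counted for these pseudogenes came from their parent genes was not tested. Ribosomal protein genes held 15.8% of the UMIs of the inhibitor macrophages and 12.9% of those of the DMSO macrophages. At the other end, the most strongly lower gene was CT010467.1, annotated as a ribosomal RNA on chromosome 17, at 115 and 471 CPM. Next came Tnfaip3, Rilpl2, a gene of organelle transport, Casp4, the caspase that senses lipopolysaccharide in the cytosol (mouse caspase-11), and the Src family kinase gene Fgr, all under 50 CPM in the inhibitor library and between 98.5 and 136 CPM in the DMSO library. Rgs1, which damps signals of chemokine receptors, stood at 152 and 389 CPM.

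Immediate early genes, which respond within minutes to growth factors, stress or tissue digestion, were the list with the most genes lower in the inhibitor library. Of 17 compared, 13 were at least 1.5-fold lower and none was higher, beside a background of 5.35% lower, and the median log2 ratio was -0.79. Fosb, an AP-1 subunit on chromosome 7 (19302696 to 19310051, minus strand), stood at 207 CPM in inhibitor and 528 CPM in DMSO macrophages, and 33.8% and 62.1% of thinned cells held a UMI of it. Dusp1, a phosphatase that switches off MAP kinases, stood at 452 and 1036 CPM, and the transcription factor genes Atf3 at 316 and 691 CPM, Klf2 at 267 and 585 CPM and Klf4 at 508 and 847 CPM. Zfp36, whose protein destabilises cytokine mRNA, stood at 274 and 581 CPM. Junb, Jund, Ier3 and Btg2 lay within 1.5-fold.

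These genes were lower in the inhibitor library in the other cells too. The same list had a median log2 ratio of -1.0 in MHC class II cells low in C1q, -1.18 in Gpnmb cells and -0.65 in C1q cells with resident genes. It was -0.78 in smooth muscle cells, -0.66 in fibroblasts and -0.59 in endothelial cells. The size in MHC class II high macrophages lay within this range. Whether digestion and handling time differed between the libraries is not given, and its part in the result cannot be told apart from that of the inhibitor.

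**Figure D4:**
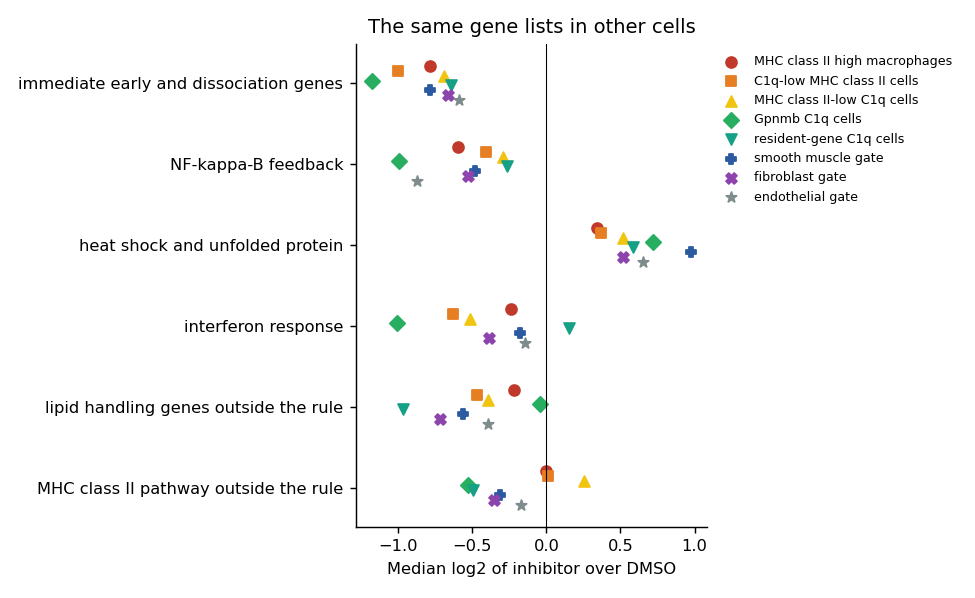
Median log2 ratio of inhibitor to DMSO (horizontal axis) for 6 gene lists (rows) in MHC class II high macrophages (red circles), in 4 related groups of cells and in smooth muscle, fibroblast and endothelial cells. Medians of immediate early and NF-kappa-B feedback lists lie below 0 and heat shock medians above 0 in all 8 groups of cells. The interferon list ranges from -1.01 in Gpnmb cells to 0.15 in cells with resident genes. In the other cells the genes are those compared in the macrophages, with no level or free RNA limit applied there.

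The NF-kappa-B list holds subunits of this transcription factor of inflammatory signalling and its regulators, many of them its own targets. Of 9 compared, 5 were at least 1.5-fold lower and none was higher, with a median log2 ratio of -0.60. Of the 5, Tnfaip3, Nfkbie and Relb were under 50 CPM in the inhibitor library and were compared only through their DMSO level, so the count supports nothing by itself; at a mean of at least 100 CPM it was 1 of 4. Tnfaip3, the A20 ubiquitin editor on chromosome 10 (19000910 to 19015657, minus strand), stood at 45 CPM in inhibitor and 136 CPM in DMSO macrophages, and 5.41% and 22.0% of thinned cells held a UMI of it, against 0.573% and 1.05% of smooth muscle cells. Nfkbiz stood at 186 and 375 CPM and Nfkbid at 59.7 and 119 CPM, both genes of nuclear proteins of the IkB family. The subunit gene Relb stood at 39.2 and 61.9 CPM, but at 54.3 and 43.9 CPM among cells with 2 to 4% MHC class II. The subunits Nfkb1, Nfkb2 and Rel and the inhibitor Nfkbia were within 1.5-fold. In the other groups of cells the median of this list ran from -1.0 in Gpnmb cells to -0.27 in cells with resident genes.

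Cytokine and chemokine genes were uneven. Of 10 compared, 3 were lower and 1 was higher in the inhibitor library, and the median log2 ratio was -0.32. Tnf stood at 115 CPM in inhibitor and 202 CPM in DMSO macrophages, and 20.3% (interval 14.1 to 27.7%) and 33.8% (29.3 to 38.6%) of thinned cells held a UMI of it. Ccl4, a chemokine of activated macrophages, stood at 327 and 711 CPM, and Ccl8, on chromosome 11 (82115185 to 82116799, plus strand), at 173 and 381 CPM. Ccl12, a ligand of Ccr2, stood at 412 and 264 CPM, but the highest inhibitor cell held 28.2% of its UMIs, and without the highest cell of each library the ratio was 1.19. Ccl2, Ccl6, Ccl7, Ccl9 and Cxcl16 lay within 1.5-fold, so the monocyte-attracting Ccl2, at 278 and 313 CPM, did not follow Ccl8.

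Il1b failed the free RNA limit, because its level in another cell type was far higher, and was not compared. Its values were 163 CPM in inhibitor and 217 CPM in DMSO macrophages. After thinning, 14.9% (9.56 to 21.6%) and 28.0% (23.7 to 32.6%) of the cells held a UMI, against 0.143% and 0.628% of smooth muscle cells, which should lack it. In the inhibitor library 30.0% of its UMIs lay in 1 cell.

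Genes for contact with T cells were few. Of 5 compared, Icam1, the ligand of the integrin LFA-1, was lower at 105 CPM in inhibitor and 180.3 CPM in DMSO macrophages, and so was Cd83, a surface gene that holds MHC class II at the membrane, at 67.0 and 105 CPM. Cd83 was within 1.5-fold under 7 of the alternatives. The costimulatory gene Cd86 stood at 92.4 and 137 CPM, within 1.5-fold. Cd40 was too low to compare, at 11.4 and 38.4 CPM, as were Cd80, Cd274 and Pdcd1lg2.

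Of 20 interferon response genes compared, 2 were lower and 1 was higher, with a median log2 ratio of -0.24. Irf1, a transcription factor induced by interferon gamma, stood at 54.8 CPM in inhibitor and 116 CPM in DMSO macrophages, and Cxcl10, a ligand of Cxcr3, a chemokine receptor of T cells, at 124 and 218 CPM, a ratio of 0.570. Cxcl10 was within 1.5-fold under 4 alternatives, at 0.928 without any resident gene, 0.878 without cells holding markers of other lineages, 0.879 in cells with 2 to 4% MHC class II and 0.773 in cells of 3000 to 10000 UMIs. The lineage alternative dropped cells with 2 or more UMIs summed over the B cell, T cell and neutrophil markers. It kept 109 of 174 inhibitor and 276 of 475 DMSO macrophages. Without the highest cell of each library the Cxcl10 ratio was 0.415. Bst2, tetherin, ran the other way at 528 and 321 CPM. Isg15, Ifit1, Rsad2 and Oasl2 lay within 1.5-fold, and the MHC class I genes H2-K1, at 1488 and 1485 CPM, and H2-D1, at 2042 and 1742 CPM, did too. Of 12 class I pathway genes only Tap1, the peptide transporter, passed the limit, at 69.5 and 106 CPM, and under 10 alternatives it did not. Among cells with 2 to 4% MHC class II the median of the interferon list was 0.06.

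Of 18 lipid handling genes compared, 4 were lower and none was higher in the inhibitor library. Abca1, which exports cholesterol to apolipoproteins, stood at 235 CPM in inhibitor and 450.3 CPM in DMSO macrophages, and 37.8% and 58.5% of thinned cells held a UMI of it. Abcg1, its partner for export to high density lipoprotein, stood at 172 and 279 CPM, and Fabp5 at 126 and 330.4 CPM. The lysosomal protease gene Ctsd stood at 828 and 1329 CPM, mostly in the lower part of the group, where it was at 963 and 1838 CPM, while in the upper part it was at 756 and 951 CPM. Trem2, at 418 and 321 CPM, and the phagocytic receptor gene Msr1 lay within 1.5-fold.

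Spp1 had more CPM in inhibitor macrophages, at 504 against 355 CPM, but a UMI of it was found in 29.9% of inhibitor and 42.3% of DMSO cells, so no order is read from it. Apoe, at 713 and 797 CPM, was counted although every animal carried the deletion; which part of the gene these 3′ reads come from was not tested, so they check nothing about the genotype. Fabp4, an adipocyte gene too, failed the free RNA limit at 91.5 and 367 CPM, and the 5 adipocyte markers summed to 17.2 CPM in inhibitor and 314 CPM in DMSO macrophages. Of 15 lysosomal genes only Ctsd passed the limit; Ctsb stood at 2204 and 2977 CPM and the protease inhibitor Cst3 at 3535 and 2740.1 CPM.

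**Figure D5:**
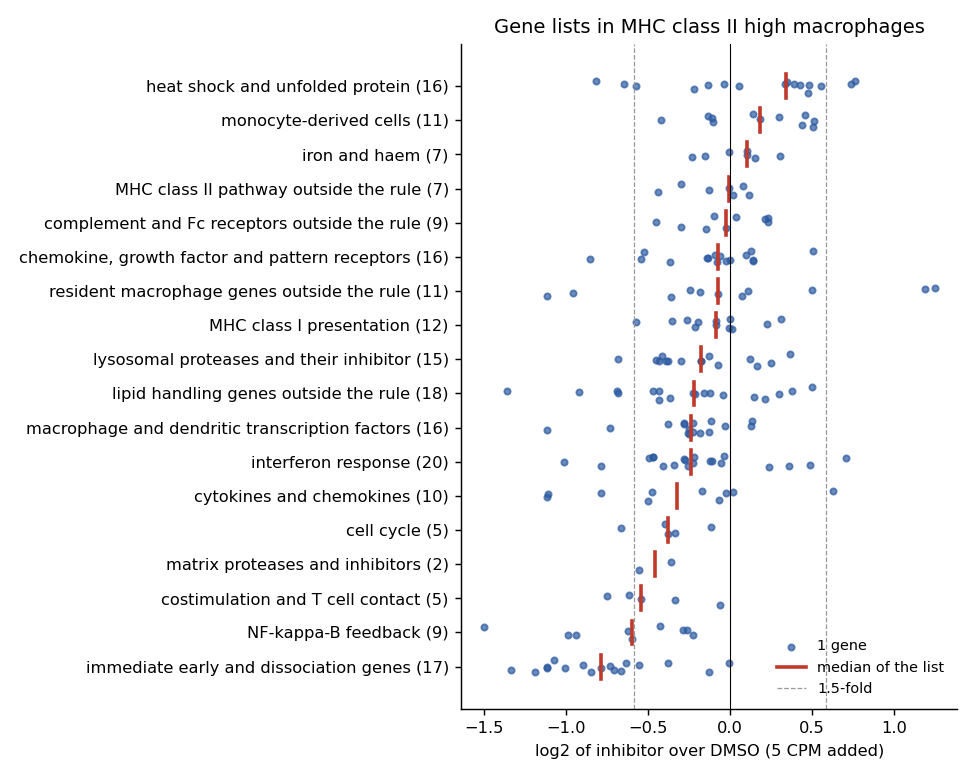
Log2 ratio of inhibitor to DMSO (horizontal axis, 5 CPM added) of each gene compared (blue points) in 18 gene lists (rows, with the number of genes compared), in MHC class II high macrophages. Red lines are medians and dashed lines mark 1.5-fold; 13 of 17 immediate early genes lie left of the dashed line, while the 7 MHC class II pathway genes lie between the dashed lines.

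Genes commonly used to mark monocyte-derived or resident macrophages did not move together, and the data hold no measure of the origin of the cells. None of 11 monocyte-derived genes passed the limit: Ccr2 stood at 866 CPM in inhibitor and 949 CPM in DMSO macrophages, and 64.9% and 65.0% of thinned cells held a UMI of it. Cx3cr1 stood at 436 and 396 CPM and was held by 40.5% and 42.8% of thinned cells. Of 11 resident macrophage genes outside the rule, Mgl2 and Pf4 were higher and Ccl8 and Clec10a were lower, while Mrc1, the mannose receptor CD206, stood at 732 and 769.9 CPM and F13a1 at 285 and 199.7 CPM. Clec10a, at 88.3 and 176 CPM, is the close relative of Mgl2, and the pair ran in opposite directions.

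The monocyte genes Plac8 and Chil3 failed the free RNA limit. Plac8 stood at 107 CPM in inhibitor and 305 CPM in DMSO macrophages, and 6.76% and 20.05% of thinned cells held a UMI of it, against 0.860% and 2.09% of smooth muscle cells. Chil3 stood at 7.36 and 48.9 CPM, and 0.676% (0.0171 to 3.71%) and 5.56% (3.55 to 8.22%) of thinned cells held a UMI. The values of both were lower in the inhibitor library.

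Several lists had few or no compared genes past the limit, and a count of 0 in a short list is near the background of 6.48%. None of 9 complement and Fc receptor genes passed it, with C3ar1 at 307 CPM in inhibitor and 329 CPM in DMSO macrophages and the Fc receptor chain Fcer1g at 2454 and 2115 CPM. The complement genes C3 and C4b failed the free RNA limit and are not among the 9. C3 had 62 UMIs in inhibitor and 743 in DMSO macrophages, and C4b 86 and 427. Without the highest cell of each library their CPM ratios were 0.221 and 0.472, and the part of free RNA was not tested. None of 7 iron genes passed the limit, with the ferritin heavy chain Fth1 at 9985 and 8989 CPM and the haem oxygenase gene Hmox1 at 172 and 192 CPM. Of 16 receptor genes only Cxcr4, at 79.3 and 147 CPM, was lower. Of 16 transcription factor genes only Klf2 and Klf4 were lower, and both were already counted in the immediate early list. Spi1, which encodes PU.1, stood at 351 and 319.9 CPM and Irf8 at 197 and 201 CPM.

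Heat shock and unfolded protein genes ran both ways. Of 16 compared, Hsp90ab1, at 3411 CPM in inhibitor and 2008 CPM in DMSO macrophages, and the mitochondrial cochaperonin Hspe1, at 441 and 262 CPM, were higher. Dnajb1, at 59.7 and 96.4 CPM, and the stress factor gene Ddit3, at 62.1 and 113 CPM, were lower. The median log2 ratio of the list was 0.34, and it was 0.98 in smooth muscle cells and 0.58 in C1q cells with resident genes.

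The inducible chaperone gene Hspa1a failed the free RNA limit. It stood at 188 CPM in inhibitor and 475 CPM in DMSO macrophages, and 26.4% (19.5 to 34.2%) and 49.5% (44.6 to 54.4%) of thinned macrophages held a UMI of it. In thinned smooth muscle cells the shares were 81.3% and 45.4%, and the part of free RNA in the macrophage values was not tested. Hspb1, whose protein guards the actin cytoskeleton of smooth muscle, stood at 335 and 55.3 CPM in the macrophages, and the same holds for it.

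Only 2 of 16 matrix protease genes could be compared, Mmp14 at 78.5 CPM in inhibitor and 117 CPM in DMSO macrophages and Adam17 at 94.0 and 122 CPM, neither past 1.5-fold. The elastase gene Mmp12 was too low to compare, at 28.6 and 37.5 CPM, and so was Mmp9, at 4.90 and 3.32 CPM. Of 5 cell cycle genes, Pcna was lower at 112 and 180.3 CPM. Cells with at least 3 of 8 division genes were 3 of 174 inhibitor macrophages (1.72%, interval 0.357 to 4.96%) and 19 of 475 DMSO macrophages (4.0%, 2.43 to 6.18%). Division genes were too low to compare: Mki67 had 22 UMIs in inhibitor and 246 in DMSO macrophages (ratio of CPM 0.242, interval 0.149 to 0.375), Top2a 22 and 198, Rrm2 3 and 66 and Ube2c 0 and 103, at summed depths of 1223554 and 3310779 UMIs. This interval takes every UMI as independent, although division genes can lie in few cells. For Cenpf, 9 of its 10 UMIs in the inhibitor macrophages came from 1 cell. The interval is therefore too narrow as a measure of the difference between cells.

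Markers of other cell types differed between the macrophages of the libraries in both directions, and whether they came from other cells was not tested. The 6 fibroblast markers summed to 522 CPM in inhibitor and 1181 CPM in DMSO macrophages, the 5 endothelial markers to 73.6 and 87.0 CPM, the 6 neutrophil markers to 102 and 64.9 CPM and the 7 B cell markers to 167 and 178 CPM. Csf3r, also in the receptor list, held 50 of 125 neutrophil marker UMIs in inhibitor and 157 of 215 in DMSO macrophages. Ighm held 164 of 204 and 484 of 589 B cell marker UMIs. Mitochondrial genes held 3.33% and 3.91% of the UMIs and the nuclear RNA Malat1 2.24% and 2.47%. Doublet scores above the limit of the inhibitor library, 0.198, were found in 9 of 174 inhibitor and 14 of 475 DMSO macrophages; these cells were left in. The part of free RNA and doublets in single genes other than those named above was not tested.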

How the data were processed

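The deposited values are raw UMI counts per gene and barcode, which the authors made in Cell Ranger 6.1.1, per the file headers; the submitters' processing notes name Cell Ranger, Seurat and GRCm38, with no steps. Every barcode holds at least 500 UMIs. All 55450 genes match GENCODE M21. Counts of the chosen cells were summed per library and divided by their total (CPM). A gene was called at a ratio of at least 1.5-fold; with 1 library per group no count model was fitted and no p-value exists. Counts of the lists against related cells were chosen after the values were seen. Ratios have exact conditional binomial intervals and shares Clopper-Pearson intervals, both at 95%. Shares of cells with a UMI were compared after thinning each cell to 2000 UMIs. The comparison cell types of the free RNA limit were 8 marker gates. List medians in other cells used the genes compared in the macrophages, with no level or free RNA limit applied there. Named genes are the 12 highest and 12 lowest ratios, up to 5 called genes per list and direction (the 3 most abundant where fewer than 3 were called), 12 genes per direction of each profile comparison, the genes of the rule and fixed markers; others were named after their values were seen. Some genes that this rule names are not reported here. The cells and the 18 lists were chosen with earlier results of these data known. The lists overlap: genes such as Klf2, Klf4, Ccl8 and Ctsd are counted in each list that holds them. The calculation of the gene ratios was run on simulated counts, drawn independently per gene without single cells, free RNA or library differences. That run checks the calculation and cannot show how the ratios or intervals hold in these data. Python 3.11.15, scipy 1.17.1 and scanpy 1.11.5 (Scrublet) were used.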

Additional observations from a re-analysis of the deposited data

How the results depend on the processing

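No paired analysis was possible because each group has 1 library. The ratio of the shares stayed below 1 under all alternatives and was 0.492 at an MHC class II minimum of 4% and 0.321 for cells with 2 to 4% only, an alternative chosen after seeing the data. Genes higher, 32 in the report, were 68 at a minimum of 4%, 129 for cells with 2 to 4%, 52 without any resident gene, 80 without cells holding markers of other lineages, 81 in cells of 3000 to 10000 UMIs (also chosen after seeing the data), 57 without mitochondrial and ribosomal protein genes in the total, 96 with the mean of per-cell CPM, 117 and 15 at mean CPM of at least 20 and 100, 55 without the free RNA limit and 6 at a fold of 2. Genes lower, 151 in the report, were 233 for cells with 2 to 4%, 409 and 61 at mean CPM of at least 20 and 100, and 28 at a fold of 2. The medians of the immediate early and NF-kappa-B lists were below 0 under all alternatives; 11 to 14 of the immediate early genes were lower, while the NF-kappa-B count, 5 of 9, was 2 of 8 with the mean of per-cell CPM, 2 of 6 with the rule on thinned cells, 2 of 7 for cells with 2 to 4%, 3 of 7 at an MHC class II minimum of 1%, 3 of 9 in cells of 3000 to 10000 UMIs and 1 of 4 at mean CPM of at least 100. Retnla (0.352), Ear2 (0.327) and Relb (1.24) changed direction among cells with 2 to 4%. Of 49 named genes past 1.5-fold, 30 stayed past it under all 18 alternatives run for single genes; Abcg1, Ccl12, Cd83, Clec10a, Ctsd, Cxcl10, Dnajb1, Ear2, Fcrls, Fkbp5, Hspe1, Icam1, Nfkbie, Nfkbiz, Pcna, Relb, Retnla, Tap1 and Tnf did not. The causes were not tested. Scrublet's own threshold called 1 DMSO cell, so that of the inhibitor library was used. The 174 inhibitor cells limit the precision, and no value separates the inhibitor from the library.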
